A study of Homo sapiens with 48 samples.

Results

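The tetraspanins were followed here through acquired resistance to Talazoparib, an inhibitor of the DNA repair enzymes PARP1 and PARP2, in PSN1 cells, an established human pancreatic cancer line. Members were chosen by name: every symbol made of TSPAN and a number, together with CD9, CD37, CD53, CD63, CD81, CD82, CD151, UPK1A and UPK1B. This rule found 31 genes among the 20241 protein-coding genes of the deposited RNA-seq table, and it used no measured value, although the family itself was picked with earlier results of these data known. Parental PSN1 cells, untreated and with their genotype labelled WT, were compared with TalaR-M cells, selected for resistance and labelled with 50 nM Talazoparib and a time of 4 months, and with TalaR-DF cells, selected in the same way and then returned to culture without the drug. Each group had 3 libraries, of 48 samples in the series, and all 9 derive from PSN1. Selection was by stepwise increases of drug, so long culture, selection and drug exposure cannot be told apart between parental and TalaR cells. Drug sensitivity was not measured in these files. The paper describes TalaR-DF as TalaR cells kept without drug for 4 weeks. It reports that PSN1 cells had by then regained nearly the Talazoparib sensitivity of parental cells, so TalaR-DF is not read here as a resistant group. The sources do not say whether the 3 libraries of a group came from separate cultures, so p-values measure only the spread between these libraries, which may be technical.

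Tetraspanins are small membrane proteins that cross the membrane several times and expose a short and a long extracellular loop. They bind each other and partner proteins sideways in the membrane, mainly integrins, immunoglobulin superfamily receptors and membrane proteases, and so gather them into microdomains that govern adhesion, migration, receptor shedding and cargo sorting. CD9, CD63 and CD81 are the usual surface markers of extracellular vesicles. CD82 is known as a suppressor of metastasis, CD151 as the partner of laminin-binding integrins, and TSPAN8 as an antigen of pancreatic and colorectal carcinoma.

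Values are log2 CPM, reads of a gene scaled to the size of the library (CPM) and put on a log scale, in which the submitters set everything at or under 1 CPM to 0. Therefore 0 means at or under 1 CPM, not absence of the mRNA, and differences for low genes are understated. Of the 31 genes, 20 were above 1 CPM in at least 3 of the 9 libraries and entered the tests. The genes CD53, TSPAN7, TSPAN11, TSPAN12, TSPAN16, TSPAN19, TSPAN32 and UPK1B were listed at 0 in all 9 libraries. Among these, CD53 and TSPAN32 are leukocyte genes, UPK1B is a uroplakin of bladder epithelium, and TSPAN12 serves norrin signalling in retinal vessels. A further 3 genes passed the floor in a single library each, with TSPAN1 at 0.95 and TSPAN10 at 0.62 log2 CPM in TalaR-M replicate 2 and UPK1A at 0.18 in parental replicate 3. TSPAN2 entered the tests only through TalaR-M, where it measured 0.29, 0.62 and 0.71 log2 CPM against 0 in the 6 other libraries, and no fold is given for it.

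One library stood apart before any gene was considered. TalaR-M replicate 2 correlated with TalaR-M replicates 1 and 3 at r = 0.78 for both, across 10512 genes that are not independent replicates, whereas replicates 1 and 3 correlated at 0.99. It also held the fewest reads, 8387755 against 12213605 to 14973847 in the other 8 libraries, counted over genes above 1 CPM. With genes above a mean of 2 log2 CPM split by transcript length into 10 bins, its distance to the average of replicates 1 and 3 had a median of 1.37 in the bin of the shortest transcripts (median 1030 bases) and -1.45 in that of the longest (median 9752 bases). Several short and abundant tetraspanins read high in this library. CD151 (1545 bases) lay 1.84 above the mean of the other TalaR-M libraries, CD63 (1023 bases) 1.37 above and CD81 (1482 bases) 1.33 above. The order by length had exceptions. CD9, short (1225 bases) and abundant, lay 0.41 below, TSPAN13 (1873 bases) 1.12 below and TSPAN33 (2951 bases) 1.10 above. The longer transcripts of TSPAN18 (4557 bases), TSPAN31 (3678 bases) and TSPAN14 (5547 bases) lay 1.12, 1.03 and 0.94 below that mean, and TSPAN3 (6348 bases) 0.09 below. The same split by the G and C content of the transcript gave a median of -1.11 in the lowest bin (median 36.7% G or C) and 0.79 in the highest (median 64.1%). Thus the fold changes of tetraspanins called in TalaR-M are given with and without replicate 2, and the origin of its departure was not tested.

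**Figure D1:**
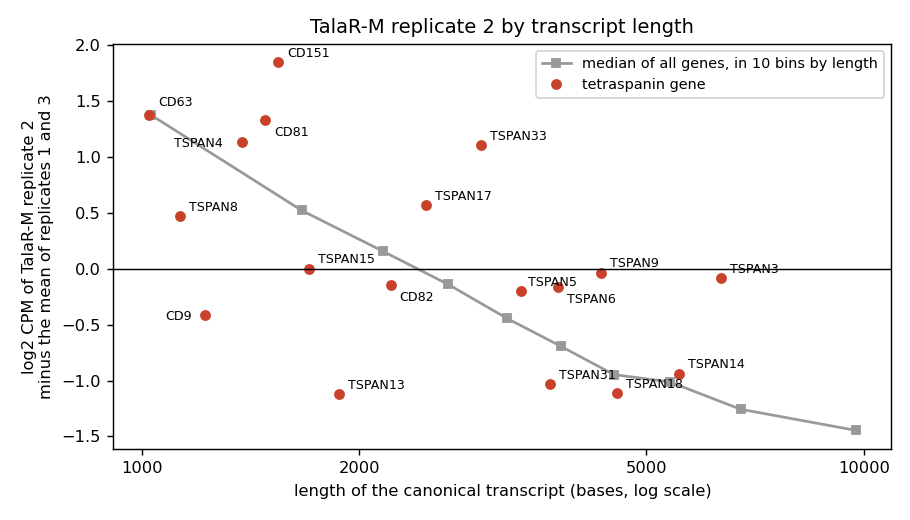
Replicate 2 of TalaR-M minus the average of replicates 1 and 3 (vertical axis, log2 CPM) against the length of the canonical transcript (horizontal axis, bases, log scale). Points are the 18 tetraspanin genes above 1 CPM in all 9 libraries, and grey squares are medians of genes with a mean above 2 log2 CPM in 10 bins by length, which fall from 1.37 to -1.45.

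Levels of different genes were compared per kilobase of transcript. In parental cells CD63, CD81 and CD151 led the family, at 267 ± 1.89, 161 ± 7.81 and 155 ± 2.24 CPM per kilobase (mean ± SD, n = 3). CD81 and CD151 did not differ beyond their spread. CD9 followed at 42.8 ± 0.93, TSPAN4, a gene known from migrasomes, at 37.8 ± 1.21 and TSPAN3 at 34.5 ± 0.50 CPM per kilobase. A middle tier held TSPAN17 at 16.6 ± 0.37, CD82 at 12.7 ± 0.47 and TSPAN6 at 12.6 ± 0.17 CPM per kilobase, and the last pair did not differ beyond their spread. Below them came TSPAN9 at 7.49 ± 0.10, then TSPAN18 at 6.31 ± 0.33 and TSPAN15 at 6.30 ± 0.98, which overlapped, then TSPAN14 at 5.18 ± 0.35 and TSPAN13 at 4.60 ± 0.19 CPM per kilobase. TSPAN31 measured 2.82 ± 0.07 CPM per kilobase. The lowest parental levels were those of CD37 at 1.63 ± 0.28, TSPAN8 at 1.51 ± 0.46, TSPAN5 at 0.93 ± 0.10 and TSPAN33 at 0.77 ± 0.06 CPM per kilobase. The genes that later rose most against parental cells, TSPAN8 and TSPAN5, were thus among the lowest in these cells.

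Summed over the 31 genes, tetraspanin mRNA made up 1335, 1311 and 1318 CPM in parental cells and 1063, 944 and 957 CPM in TalaR-DF. TalaR-M gave 1357 and 1200 CPM in replicates 1 and 3 and 2468 CPM in replicate 2. CD151, CD81 and CD63 together supplied 57.7%, 56.3% and 56.7% of that sum in parental cells, 53.4%, 50.7% and 49.4% in TalaR-DF, and 47.7%, 71.8% and 48.1% in TalaR-M. Replicate 2 of TalaR-M is the high value in both lists. In bulk RNA, fewer cells with a transcript and less transcript per cell cannot be told apart.

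**Figure D2:**
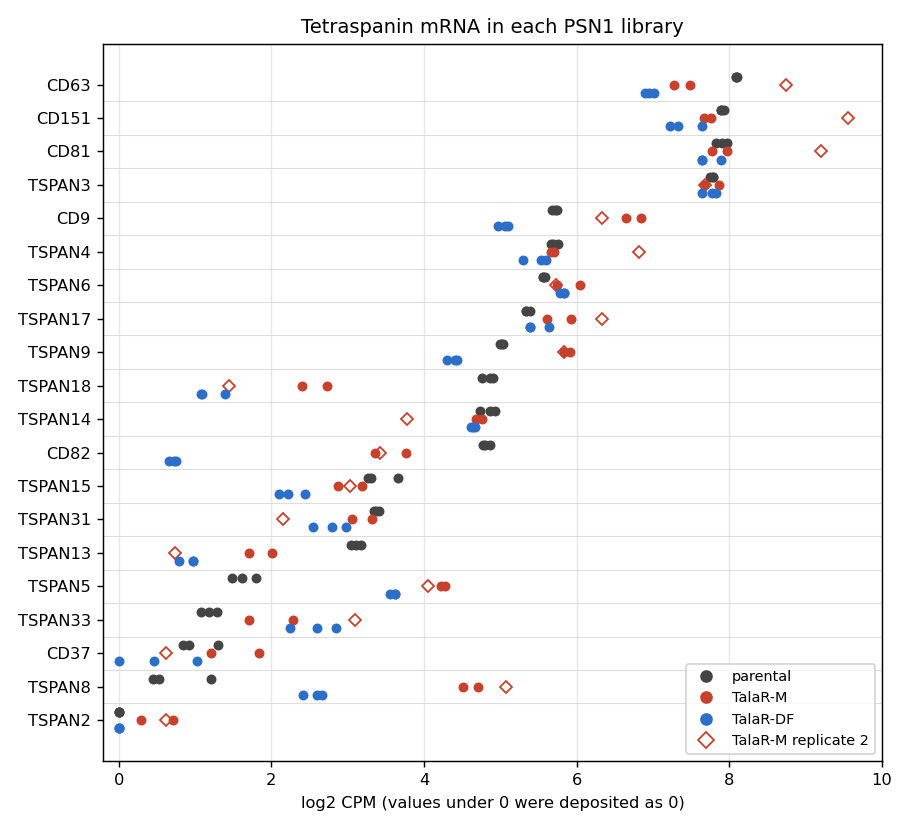
Level of each of the 20 tested tetraspanin genes in each library (horizontal axis, log2 CPM, values under 0 deposited as 0), with 1 point per library, in black for parental, red for TalaR-M and blue for TalaR-DF. TalaR-M replicate 2 is drawn as an open diamond, and the gene order follows the parental mean. TSPAN8 and TSPAN5 lie to the right of parental cells in both TalaR groups, whereas CD82, TSPAN18 and TSPAN13 lie to the left.

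To ask how the family differed between TalaR and parental cells, a gene was called at an adjusted p under 0.05 (limma, Benjamini-Hochberg over 12471 genes) and at least a 2-fold difference. Against parental cells, 6 of the 20 tested tetraspanins were called in TalaR-M, namely TSPAN8, TSPAN5 and TSPAN33 higher and CD82, TSPAN18 and TSPAN13 lower. Of all genes tested, 13.3% were called in that comparison, 5.53% higher and 7.72% lower. Without replicate 2 of TalaR-M the count was again 6, of which 5 were shared (CD9 entered and TSPAN33 left), and 13.9% of all genes were called. In TalaR-DF, 7 tetraspanins were called against parental cells, TSPAN5, TSPAN8 and TSPAN33 higher and CD82, TSPAN18, TSPAN13 and TSPAN15 lower. The background there was 9.73%, with 2.25% higher and 7.49% lower, and it was 11.4% without TalaR-M replicate 2, where CD63 joined as the eighth gene. The 2 comparisons share the 3 parental libraries, so that their values are set side by side and not counted as separate evidence. The median log2 fold change of the 20 genes was 0.31 in TalaR-M (-0.02 without replicate 2) and -0.37 in TalaR-DF, beside -0.09 (0.01 without replicate 2) and 0.01 for all genes tested.

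TalaR-M libraries lay wholly above or wholly below the parental ones for 13 of the 20 genes (TSPAN2 included, whose place the filter fixed), against 49.8% of all genes tested, and for 15 without replicate 2, against 75% of all genes. For TalaR-DF the number was 15, against 68.5% of all genes. Setting the TalaR groups against each other, 4 tetraspanins were higher in TalaR-M than in TalaR-DF (CD82, TSPAN8, CD9 and TSPAN9) and 0 were lower (by limma, also 0 at an unadjusted p under 0.05), where 6.93% of all genes were called, 5.29% higher and 1.64% lower. Without replicate 2 the number was 6, with TSPAN18 and CD37 added, beside 8.36% of all genes. The median of the 20 genes was 0.59 (0.46 without replicate 2), and that of all genes was -0.09 (-0.02). Groups did not overlap for 11 of the 20 genes, against 40.8% of all genes, and for 15 without replicate 2, against 60.6%. TSPAN2 is again among them, and fewer libraries in a group make overlap rarer by construction.

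**Figure D3:**
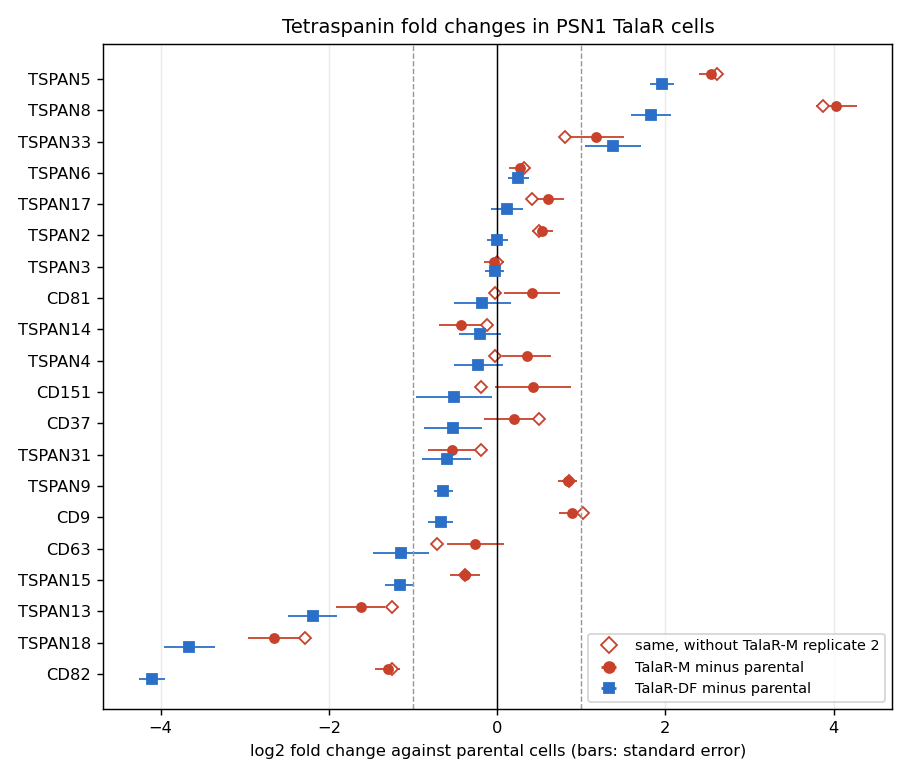
Log2 fold change of each tested tetraspanin gene against parental cells (horizontal axis), for TalaR-M (red circles), TalaR-DF (blue squares) and TalaR-M without replicate 2 (open red diamonds). Bars are standard errors of the limma fit, and dashed lines mark a 2-fold difference. TSPAN8 reaches 4.03 in TalaR-M and CD82 reaches -4.10 in TalaR-DF, and CD9 and TSPAN9 lie above 0 in TalaR-M and below 0 in TalaR-DF.

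TSPAN8 showed the largest rise of the family in TalaR-M. Its mRNA measured 0.45, 1.20 and 0.52 log2 CPM in the parental libraries, 4.70, 5.07 and 4.51 in TalaR-M and 2.66, 2.41 and 2.60 in TalaR-DF. The groups did not overlap, and TalaR-DF lay between the others. Behind these values stand 18 to 31 reads per parental library, 253 to 408 in TalaR-M and 72 to 91 in TalaR-DF. The log2 fold change against parental cells was 4.03 ± 0.24 (SE, limma adjusted p = 9.49e-06) in TalaR-M, and 3.88 without replicate 2. In TalaR-DF it was 1.83 ± 0.24 (adjusted p = 0.00117). With 8 CPM added to the unlogged values the TalaR-DF value fell under 2-fold (0.52), as did the other higher calls in that group, TSPAN5 (0.86) and TSPAN33 (0.44). TalaR-M exceeded TalaR-DF by 2.20 ± 0.24 (adjusted p = 8.12e-04), and by 2.05 without replicate 2. Per kilobase, TSPAN8 rose from 1.51 ± 0.46 CPM in parental cells to 24.3 ± 4.95 in TalaR-M (21.5 without replicate 2), and it was at 5.22 ± 0.47 CPM in TalaR-DF. GENCODE places the gene on chromosome 12 at 71125085 to 71441898 (hg38, minus strand), where it overlaps LGR5 on the opposite strand over 2101 bases. That overlap lies upstream of the RefSeq start site whose promoter window is given below (71158000 to 71158249), so the 2 annotations differ in where the gene begins.

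TSPAN5 belongs to the TspanC8 subgroup, whose members bind the protease ADAM10 and bring it to the cell surface. It measured 1.62, 1.49 and 1.80 log2 CPM in parental libraries, 4.22, 4.05 and 4.27 in TalaR-M and 3.61, 3.56 and 3.62 in TalaR-DF. All 6 TalaR libraries were above all 3 parental ones. The rise was 2.54 ± 0.14 (SE, limma adjusted p = 6.88e-06) in TalaR-M, 2.61 without replicate 2, and 1.96 ± 0.14 (adjusted p = 4.25e-05) in TalaR-DF. The TalaR-M and TalaR-DF libraries did not overlap, but their difference of 0.58 ± 0.14 was under 2-fold (adjusted p = 0.0363), and it was 0.65 without replicate 2. TSPAN5 is on chromosome 4 at 98470367 to 98658611, minus strand.

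TSPAN33, a further TspanC8 member known from B cells and red cell precursors, was the least stable call. It measured 1.08, 1.29 and 1.18 log2 CPM in parental libraries (29 to 33 reads), 2.28, 3.10 and 1.71 in TalaR-M and 2.60, 2.24 and 2.84 in TalaR-DF. Both TalaR groups were above parental cells and overlapped each other. The log2 fold change was 1.18 ± 0.33 (SE, limma adjusted p = 0.0347) in TalaR-M and 1.38 ± 0.33 (adjusted p = 0.0216) in TalaR-DF. Without TalaR-M replicate 2 the first value was 0.81, under 2-fold. That call was also lost when any of the other libraries except TalaR-M replicate 3 was left out, and the TalaR-DF call was lost without any 1 parental library and without TalaR-DF replicate 1 or 3.

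CD82 showed the largest fall of the family in TalaR-DF, while in TalaR-M it fell less than TSPAN18. It measured 4.80, 4.77 and 4.87 log2 CPM in parental libraries, 3.76, 3.42 and 3.36 in TalaR-M and 0.73, 0.74 and 0.66 in TalaR-DF. The groups did not overlap, and cells without the drug were the lowest, at 19 to 23 reads per library against 378 to 408 in parental cells. The log2 fold change was -1.30 ± 0.15 (SE, limma adjusted p = 4.79e-04) in TalaR-M, -1.25 without replicate 2, and -4.10 ± 0.15 (adjusted p = 9.77e-07) in TalaR-DF. TalaR-M exceeded TalaR-DF by 2.80 ± 0.15 (adjusted p = 2.78e-05), and by 2.85 without replicate 2. Per kilobase the level went from 12.7 ± 0.47 CPM in parental cells to 5.20 ± 0.81 in TalaR-M (5.38 without replicate 2) and 0.74 ± 0.02 in TalaR-DF. CD82 is on chromosome 11 at 44564427 to 44620358, plus strand.

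TSPAN18, which in endothelial cells acts with a store-operated calcium channel, is the next tetraspanin on that chromosome, at 44726465 to 44932423, with 106107 bases between the pair. It measured 4.87, 4.76 and 4.91 log2 CPM in parental libraries, 2.73, 1.45 and 2.40 in TalaR-M and 1.39, 1.08 and 1.09 in TalaR-DF. All 6 TalaR libraries were below the parental ones. The log2 fold change was -2.65 ± 0.30 (SE, limma adjusted p = 4.38e-04) in TalaR-M, -2.28 without replicate 2, and -3.66 ± 0.30 (adjusted p = 8.38e-05) in TalaR-DF. TalaR-M exceeded TalaR-DF by 1.01 ± 0.30, which was not called (adjusted p = 0.0698), and by 1.38 without replicate 2, which was (adjusted p = 1.61e-05). TSPAN18 overlaps TP53I11, a gene on the opposite strand, over 46521 bases. TP53I11 measured 2.68, 2.16 and 2.39 log2 CPM in parental libraries, 4.83, 4.27 and 4.75 in TalaR-M and 1.72, 1.43 and 1.09 in TalaR-DF. Against parental cells TP53I11 thus rose in TalaR-M, by 2.21 ± 0.24 (adjusted p = 0.0003), where TSPAN18 fell, and by 2.39 without replicate 2. In TalaR-DF its log2 fold change was -0.99 ± 0.24, under 2-fold (adjusted p = 0.0218). TalaR-M exceeded TalaR-DF by 3.20 ± 0.24 for TP53I11 (adjusted p = 1.16e-04), and by 3.38 without replicate 2. In these last comparisons TSPAN18 had the same direction. The strand setting of the counting is not given in the sources used here.

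Since CD82 and TSPAN18 lie side by side, the genes within 1 megabase of the pair were listed, a window chosen after their values were seen (chromosome 11, 43564427 to 45932423). It held 18 genes, of which 15 others than the pair were tested. In TalaR-M, PHF21A was lower than in parental cells and TP53I11 was higher, with and without replicate 2, which is 1 of 15 in each direction beside 7.72% and 5.53% of all genes. In TalaR-DF, ALX4, SYT13 and PHF21A were lower, 3 of 15 beside 7.49% of all genes, and 0 were higher (by limma, also 0 at an unadjusted p under 0.05), beside 2.25%. Between the TalaR groups, TP53I11 (3.20), CHST1 (1.37) and SYT13 (1.09) were called higher in TalaR-M, beside 5.29% of all genes. Without replicate 2 the calls also held ALX4 (1.49) and PRDM11 (1.18). No tested neighbour was called lower there, with or without replicate 2. The median log2 fold change of the 15 genes was 0.16 in TalaR-M (-0.11 without replicate 2) and -0.23 in TalaR-DF. ALX4, a homeobox gene next to CD82, went from 5.95 to 6.04 log2 CPM in parental libraries to 4.00, 3.82 and 3.72 in TalaR-DF.

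TSPAN13, a less studied member, measured 3.17, 3.11 and 3.05 log2 CPM in parental libraries, 2.01, 0.74 and 1.71 in TalaR-M and 0.79, 0.97 and 0.98 in TalaR-DF. Every TalaR library was below the parental ones. It fell by 1.62 ± 0.29 on the log2 scale in TalaR-M (SE, limma adjusted p = 0.00515), by 1.25 without replicate 2, and by 2.19 ± 0.29 in TalaR-DF (adjusted p = 0.00132). TSPAN15, a TspanC8 member that steers ADAM10 towards N-cadherin, was called in TalaR-DF. It measured 3.66, 3.27 and 3.31 log2 CPM in parental libraries, 3.19, 3.03 and 2.87 in TalaR-M and 2.44, 2.10 and 2.22 in TalaR-DF. TalaR-DF was the lowest group without overlap, with a log2 fold change of -1.16 ± 0.17 (adjusted p = 0.00243) against -0.38 ± 0.17 in TalaR-M (adjusted p = 0.149), also -0.38 without replicate 2. Between the TalaR groups the difference was 0.78 ± 0.17 (adjusted p = 0.025), and also 0.78 without replicate 2 (adjusted p = 0.00229), which is under 2-fold.

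CD9 and TSPAN9, the latter a gene first known from platelets, lay on opposite sides of parental cells in the TalaR groups. CD9 measured 5.68, 5.74 and 5.71 log2 CPM in parental libraries, 6.84, 6.33 and 6.64 in TalaR-M and 5.06, 5.10 and 4.96 in TalaR-DF. TSPAN9 measured 5.03, 4.99 and 5.03 in parental libraries, 5.91, 5.83 and 5.83 in TalaR-M and 4.40, 4.43 and 4.30 in TalaR-DF. For both genes the order was TalaR-M, parental, TalaR-DF, with no overlap. TalaR-M exceeded TalaR-DF by 1.56 ± 0.15 for CD9 (SE, limma adjusted p = 4.06e-04), and by 1.70 without replicate 2. For TSPAN9 the difference was 1.48 ± 0.11 (adjusted p = 1.44e-04), and 1.49 without replicate 2. Against parental cells each step was under 2-fold, for CD9 0.89 ± 0.15 in TalaR-M (adjusted p = 0.00364) and -0.67 ± 0.15 in TalaR-DF (adjusted p = 0.0161). The TalaR-M value of CD9 was 1.03 without replicate 2, which passed the fold threshold. The corresponding TSPAN9 values were 0.84 ± 0.11 (adjusted p = 0.00121), 0.85 without replicate 2, and -0.64 ± 0.11 (adjusted p = 0.00578). Both genes are on chromosome 12, TSPAN9 at 3077355 to 3286564 and CD9 at 6199715 to 6238271.

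CD63, a tetraspanin of late endosomes and lysosomes as well as vesicles, missed the call in the full set of libraries and passed it without TalaR-M replicate 2. It measured 8.10, 8.09 and 8.08 log2 CPM in parental libraries, 7.48, 8.75 and 7.27 in TalaR-M and 7.02, 6.89 and 6.95 in TalaR-DF. TalaR-DF was the lowest group without overlap, and replicate 2 was the highest of all 9 libraries. The log2 fold change in TalaR-DF was -1.14 ± 0.34 (SE, limma adjusted p = 0.0507). Without that library the same difference had a standard error of 0.06 and was called (adjusted p = 3.00e-08), since all groups share an estimate of the spread. CD81, a widely expressed tetraspanin of the cell surface, measured 7.83 to 7.97 log2 CPM in parental libraries and 7.64 to 7.89 in TalaR-DF. In TalaR-M it measured 7.97, 9.20 and 7.78. For CD151 the parental libraries lay between 7.89 and 7.93 log2 CPM and the TalaR-DF libraries between 7.22 and 7.65, while TalaR-M gave 7.76, 9.56 and 7.67. Neither gene was called, with log2 fold changes in TalaR-DF of -0.17 for CD81 (95% confidence interval -0.94 to 0.60) and -0.51 for CD151 (-1.55 to 0.53). Replicate 2 of TalaR-M widens these intervals through the shared spread. Without it the TalaR-DF difference of CD151 had a standard error of 0.09 (limma adjusted p = 4.44e-04). That fall stayed under 2-fold, with every TalaR-DF library below the parental ones. For CD81 the standard error was then 0.08 (adjusted p = 0.0754).

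The steadiest member was TSPAN3, at 7.64 to 7.87 log2 CPM over all 9 libraries. Its log2 fold change was -0.03 in TalaR-M (95% confidence interval -0.30 to 0.23), -0.01 without replicate 2, and -0.03 in TalaR-DF (-0.30 to 0.24), so that a 2-fold difference lay outside both intervals. TSPAN6, which has been tied to endosomal sorting, measured 5.55 to 5.59 log2 CPM in parental libraries and 5.73 to 6.04 in the 6 TalaR ones. Its differences stayed under 2-fold, at 0.27 (-0.02 to 0.56) in TalaR-M, 0.32 without replicate 2, and 0.25 (-0.04 to 0.54) in TalaR-DF. Without replicate 2 the limma adjusted p of TSPAN6 was 0.00568 in TalaR-M and 0.0118 in TalaR-DF. TSPAN4 measured 5.30 to 5.75 log2 CPM outside TalaR-M replicate 2, where it reached 6.81. TSPAN31, which lies next to CDK4 and overlaps it on the opposite strand, measured 3.34 to 3.41 log2 CPM in parental libraries, 3.31, 2.15 and 3.06 in TalaR-M and 2.80, 2.54 and 2.98 in TalaR-DF. CD37, a leukocyte tetraspanin, was close to the floor throughout, at 0.85 to 1.30 log2 CPM in parental libraries, 1.20, 0.62 and 1.83 in TalaR-M and 0.47, 1.03 and 0 in TalaR-DF. It was not called between TalaR-M and TalaR-DF over all libraries, and it was called without replicate 2, with a difference of 1.02 ± 0.28 (adjusted p = 0.0100).

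Of the 6 TspanC8 genes, TSPAN10 did not pass the filter and 5 were tested. TSPAN5 and TSPAN33 were higher in both TalaR groups (TSPAN5 alone in TalaR-M without replicate 2), and TSPAN15 was lower in TalaR-DF. These are 40% and 60% of the 5 genes, beside 13.3% and 9.73% of all genes, and 0 of the 5 were called between the TalaR groups (by limma, with TSPAN5, TSPAN15 and TSPAN17, 3 of the 5, at an unadjusted p under 0.05). TSPAN14 measured 4.73 to 4.92 log2 CPM in parental libraries and 4.62 to 4.67 in TalaR-DF, and in TalaR-M it measured 4.76, 3.78 and 4.68. TSPAN17 measured 5.34 to 5.39 log2 CPM in parental libraries, 5.93, 6.34 and 5.61 in TalaR-M and 5.39 to 5.63 in TalaR-DF. Neither passed the test. In parental cells TSPAN17 was the most abundant of the 5 per kilobase and TSPAN33 and TSPAN5 the least. TSPAN5 rose from 0.93 ± 0.10 to 5.42 ± 0.43 CPM per kilobase in TalaR-M (5.67 without replicate 2). In the same cells TSPAN15 was at 4.82 ± 0.52 (4.83) and TSPAN14 at 3.99 ± 1.32 (4.75). ADAM10 itself, their partner, measured 7.55 to 7.60 log2 CPM in parental libraries, 7.64, 5.63 and 7.51 in TalaR-M and 7.36 to 7.49 in TalaR-DF, and was not called.

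Promoters of genes that rose (TSPAN8, TSPAN5) and of genes that fell (CD82, TSPAN13) in both TalaR groups are shown to let their base composition be compared. Each stretch comes from the 250 bases before the first RefSeq start site of the gene (GRCh38.p14), written 5′ to 3′ on the gene's strand. Capitals mark GGGCGG and CAGGTG, or their complements CCGCCC and CACCTG on the other strand. Overlapping matches of GGGCGG were each counted. The CD82 stretch ends before the first base that an annotated exon covers. The windows are chr12:71158000-71158249 (minus strand) for TSPAN8, chr4:98658612-98658861 (minus strand) for TSPAN5, chr11:44565413-44565600 (plus strand) for CD82 and chr7:16753505-16753754 (plus strand) for TSPAN13.
TSPAN8: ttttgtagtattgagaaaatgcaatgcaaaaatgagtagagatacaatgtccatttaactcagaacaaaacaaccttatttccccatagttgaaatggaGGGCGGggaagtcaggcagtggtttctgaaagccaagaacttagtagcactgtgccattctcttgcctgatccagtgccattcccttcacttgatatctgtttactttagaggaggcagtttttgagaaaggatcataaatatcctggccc
TSPAN5: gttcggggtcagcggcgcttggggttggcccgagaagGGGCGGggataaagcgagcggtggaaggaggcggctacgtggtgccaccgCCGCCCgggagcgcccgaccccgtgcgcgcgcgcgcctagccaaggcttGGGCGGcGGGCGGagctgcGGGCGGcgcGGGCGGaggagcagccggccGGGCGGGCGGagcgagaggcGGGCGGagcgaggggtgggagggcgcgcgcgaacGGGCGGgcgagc
CD82: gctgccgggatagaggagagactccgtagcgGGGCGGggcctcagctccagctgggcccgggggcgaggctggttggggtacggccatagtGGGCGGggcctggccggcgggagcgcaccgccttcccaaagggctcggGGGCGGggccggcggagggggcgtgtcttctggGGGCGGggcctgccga
TSPAN13: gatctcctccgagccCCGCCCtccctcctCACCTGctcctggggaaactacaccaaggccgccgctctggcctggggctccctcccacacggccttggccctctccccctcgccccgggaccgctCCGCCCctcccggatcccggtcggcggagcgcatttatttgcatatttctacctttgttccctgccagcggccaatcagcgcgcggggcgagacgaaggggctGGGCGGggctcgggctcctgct

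The 2 genes that rose most had unlike promoters. Over the 250 bases, TSPAN8 had 40.8% G or C, 1 CpG and 1 match to GGGCGG. TSPAN5 had 80.0% G or C, 43 CpG and 10 matches. CD82 had 77.2% G or C, 26 CpG and 4 matches, and TSPAN13 had 70.0%, 22 CpG, 3 matches to GGGCGG and 1 to CAGGTG. The promoter table used here held 43 start sites for 23 of the 31 genes, and did not hold CD151, CD37, CD81, TSPAN18, TSPAN3, TSPAN32, TSPAN7 and TSPAN9. Among the 43 windows 60.5% held GGGCGG and 27.9% held CAGGTG, against 54.4% and 16.9% of 20176 windows of all genes in the table that matched. TATAAA and CCAAT, searched on both strands as well, were in 2.33% and 20.9% of tetraspanin windows and in 8.77% and 32.8% of all windows. A match of letters describes the sequence and is not a bound site.

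Proteins that tetraspanins bind or travel with were read from lists of 73 genes, of which 63 were tested. Against parental cells, 8 were higher and 7 lower in TalaR-M (8 and 8 without replicate 2), which is 23.8% called beside 13.3% of all genes. In TalaR-DF, 3 were higher and 7 lower (3 and 10 without TalaR-M replicate 2), which is 15.9% beside 9.73%. Both lower counts include CLDN7, which entered the tests only through the parental libraries, so that the filter fixed its direction. TalaR-M exceeded TalaR-DF for 6 genes (7 without replicate 2) and fell below it for 0 (by limma, 9 at an unadjusted p under 0.05), which is 9.52% beside 6.93%. The medians over the 63 genes were -0.19 (-0.02 without replicate 2), -0.26 and -0.12 (0.11 without replicate 2), beside -0.09, 0.01 and -0.09 for all genes tested.

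Of 11 integrin genes tested, 3 were called lower than in parental cells in TalaR-M and 4 in TalaR-DF, and 0 higher in either (by limma, also 0 at an unadjusted p under 0.05), beside 7.72% and 7.49% of all genes called lower. Without TalaR-M replicate 2 the counts were 4 and 5, with ITGB3 added in both (log2 fold changes of -1.32 and -1.69), a gene outside the 12 named partner genes and named after its values were seen. Of 5 genes on the list of laminin-binding integrins, ITGA7 fell in both TalaR groups, from 5.26 to 5.38 log2 CPM in parental libraries to 3.23, 3.19 and 3.50 in TalaR-M and 2.68, 2.93 and 2.31 in TalaR-DF. The log2 fold changes were -2.03 ± 0.19 (SE, limma adjusted p = 1.29e-04), -1.97 without replicate 2, and -2.70 ± 0.19 (adjusted p = 3.26e-05). ITGB4, outside the 12 named partner genes and added after its values were seen, went from 3.16 to 3.46 log2 CPM in parental libraries to 1.69 to 2.04 in TalaR-DF, a log2 fold change of -1.49, and TalaR-M exceeded TalaR-DF by 1.43 (1.33 without replicate 2). ITGA3, the main partner of CD151, measured 8.83 to 8.89 log2 CPM in parental libraries, 9.01, 8.64 and 8.95 in TalaR-M and 8.03 to 8.11 in TalaR-DF, a difference in TalaR-DF of -0.79 ± 0.13 that was under 2-fold (adjusted p = 0.00446). Among 6 other integrins tested, the fibronectin receptor gene ITGA5 went from 8.60 to 8.69 log2 CPM in parental libraries to 6.42, 6.13 and 6.24 in TalaR-M and 6.65, 6.45 and 6.50 in TalaR-DF. It fell by 2.40 ± 0.12 (adjusted p = 4.63e-06), by 2.33 without replicate 2, and by 2.13 ± 0.12 (adjusted p = 1.20e-05) on the log2 scale. The collagen receptor gene ITGA2 was lower in TalaR-M (8.23, 5.35 and 8.14 log2 CPM) than in parental cells (9.62 to 9.68). Its log2 fold change was -2.41 ± 0.67 (adjusted p = 0.0344), and -1.46 ± 0.08 without replicate 2. ITGA1, a further collagen receptor gene, was called in TalaR-DF, at 2.35, 2.17 and 2.17 against 3.70 to 3.99 log2 CPM in parental cells, a log2 fold change of -1.66 ± 0.30 (adjusted p = 0.00576). TalaR-M, at 3.60, 2.39 and 3.39, exceeded TalaR-DF by 0.90, which was not called (adjusted p = 0.0923), and by 1.27 without replicate 2, which was (adjusted p = 1.80e-05).

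Of 11 adhesion and signalling partners tested, 4 were called higher (CLDN1, ALCAM, EPCAM and HBEGF) and 2 lower (ICAM1 and CLDN7) in TalaR-M, 54.5% beside 13.3% of all genes. In TalaR-DF, ALCAM was called higher and CLDN7 lower, 18.2% beside 9.73%. Both shares include CLDN7, which entered the tests only through the parental libraries, so that the filter fixed its direction. CLDN7, HBEGF and EPCAM lie outside the 12 named partner genes and were added after their values were seen. CLDN7, a further claudin gene, went from 1.25 to 1.62 log2 CPM in parental libraries to 0 in all 6 TalaR ones, and HBEGF, a growth factor gene, was higher in TalaR-M by 1.30 (1.25 without replicate 2). CLDN1, a tight junction claudin, measured 2.33 to 2.71 log2 CPM in parental libraries, 5.33, 4.28 and 5.11 in TalaR-M and 3.06 to 3.47 in TalaR-DF. TalaR-M exceeded parental cells by 2.39 ± 0.28 (SE, limma adjusted p = 4.87e-04) and TalaR-DF by 1.60 ± 0.28 (adjusted p = 0.00813). Without replicate 2 these differences were 2.70 and 1.91. ALCAM, an immunoglobulin superfamily adhesion molecule shed by membrane proteases, measured 4.51 to 4.57 in parental libraries, 6.39, 5.71 and 6.14 in TalaR-M and 5.92 to 6.20 in TalaR-DF. It rose by 1.54 ± 0.18 (adjusted p = 5.67e-04), 1.72 without replicate 2, and by 1.53 ± 0.18 (adjusted p = 7.28e-04), and the TalaR groups overlapped. ICAM1, the ligand of leukocyte integrins, was lower in TalaR-M at 5.89, 3.95 and 5.71 than in parental cells at 7.37 to 7.50 log2 CPM. Its log2 fold change was -2.24 ± 0.45 (adjusted p = 0.00830), and -1.62 without replicate 2. In TalaR-DF it measured 6.46, 6.19 and 6.30, also below every parental library, a log2 fold change of -1.11 that was not called (adjusted p = 0.141) and was called without TalaR-M replicate 2 (adjusted p = 2.34e-07). On another list, IGSF3, of the immunoglobulin superfamily proteins that bind CD9 and CD81, differed between the TalaR groups by 2.48 ± 0.48 (adjusted p = 0.0129), at 4.77, 2.80 and 4.68 log2 CPM in TalaR-M and 1.42 to 1.86 in TalaR-DF. That difference was 3.12 without replicate 2, and IGSF3 was then also called against parental cells (3.02 to 3.22 log2 CPM), higher in TalaR-M and lower in TalaR-DF. Of 4 genes tested on that list, 1 was called in each comparison over all libraries, 25% beside 13.3%, 9.73% and 6.93% of all genes. CD276 was lower in TalaR-M (-1.01, adjusted p = 6.80e-04, and -1.06 without replicate 2). IGSF8 was lower in TalaR-DF (-1.11, adjusted p = 0.00695). Both lie outside the 12 named partner genes and were added after their values were seen.

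Substrates of ADAM10 were read beside the TspanC8 genes. CDH2, which encodes N-cadherin, was at 0.13, 0 and 0.53 log2 CPM in parental libraries and measured 2.85, 1.30 and 2.46 in TalaR-M and 2.93, 3.25 and 3.21 in TalaR-DF. It was higher by 1.98 ± 0.37 (SE, limma adjusted p = 0.00567), 2.43 without replicate 2, and by 2.91 ± 0.37 (adjusted p = 9.27e-04), differences that the floor understates. The call in TalaR-M was lost with 0.1 CPM added to the unlogged values (3.05, adjusted p = 0.0586) and both calls fell under 2-fold with 8 CPM added (0.55 in TalaR-M and 0.93 in TalaR-DF). NOTCH1 was lower in TalaR-M, at 6.37, 5.49 and 6.53 against 7.74 to 7.85 log2 CPM in parental cells, a log2 fold change of -1.68 ± 0.26 (adjusted p = 0.00222) that was -1.36 without replicate 2. The epithelial cadherin gene CDH1 was listed at 0 in all 9 libraries. NDP, which encodes norrin, the ligand at receptors that TSPAN12 serves, measured 1.21 to 1.33 in parental libraries, 2.90, 3.05 and 2.55 in TalaR-M and 0.22 to 0.92 in TalaR-DF. TalaR-M exceeded parental cells by 1.57 ± 0.21 (adjusted p = 0.00121) and TalaR-DF by 2.35 ± 0.21 (adjusted p = 3.19e-04), and by 1.46 and 2.24 without replicate 2, while TSPAN12 itself stayed at 0.

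Of 14 genes of vesicle biogenesis 1 was called in each comparison, 7.14% beside 13.3%, 9.73% and 6.93% of all genes, and each time it was SDC1. It encodes syndecan-1, whose tail is bound by syntenin, and it followed the order of CD9 and TSPAN9: 4.74, 4.82 and 4.61 log2 CPM in TalaR-M, 3.56 to 3.80 in parental libraries and 2.41 to 2.64 in TalaR-DF. The differences from parental cells were 1.04 ± 0.14 (SE, limma adjusted p = 0.00129) and -1.14 ± 0.14 (adjusted p = 9.37e-04), and the first fell just under 2-fold without replicate 2. TalaR-M exceeded TalaR-DF by 2.19 ± 0.14 (adjusted p = 6.57e-05), and by 2.14 without replicate 2. Of 5 lysosome genes, the soluble protease gene CTSD among them, and 4 palmitoyltransferase genes, 0 were called by limma in any comparison. At an unadjusted p under 0.05, 1 lysosome gene was lower in TalaR-M than parental cells, 1 palmitoyltransferase gene was higher in TalaR-DF than parental cells, and 1 was lower in TalaR-M than TalaR-DF.

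**Figure D4:**
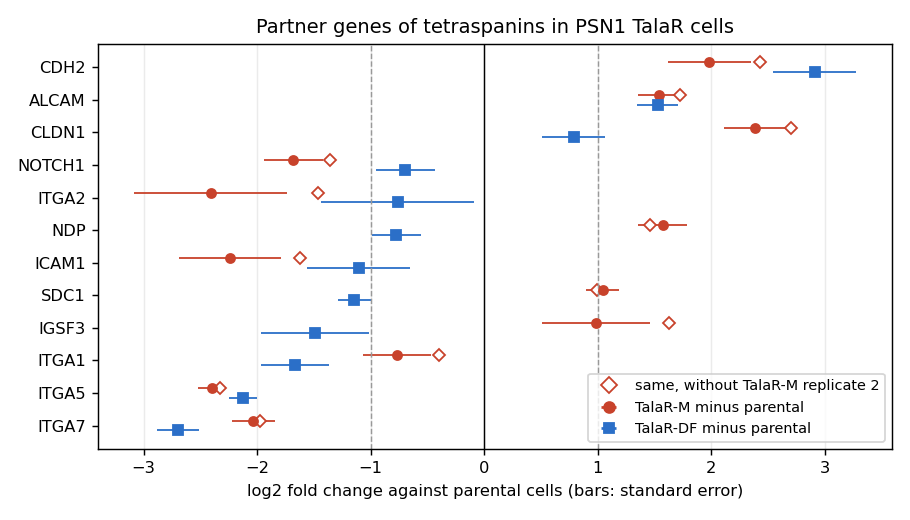
Log2 fold change against parental cells (horizontal axis) of the 12 named partner genes of tetraspanins, for TalaR-M (red circles), TalaR-DF (blue squares) and TalaR-M without replicate 2 (open red diamonds), with bars for standard errors and dashed lines at a 2-fold difference. ITGA7 and ITGA5 lie below -2 in both TalaR groups, CDH2 and ALCAM lie above 1 in both, and NDP, SDC1 and IGSF3 lie on opposite sides of 0.

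Markers of the labelled cell type and of others were read in the same libraries. Of 8 ductal carcinoma markers 7 were above 1 CPM, with KRT8 the most abundant per kilobase and CDH1 at 0. Their summed level was 1199 to 1261 CPM in parental libraries, 1932, 5829 and 1782 CPM in TalaR-M and 1017 to 1153 CPM in TalaR-DF. KRT19 and EPCAM were higher in TalaR-M than in parental libraries, by 2.62 (limma adjusted p = 0.00233) and 1.20 (adjusted p = 2.48e-04) on the log2 scale, and by 2.07 and 1.22 without replicate 2. KRT7, KRT8, KRT18, MUC1 and SOX9 were not called there, with values from -0.93 for SOX9 to 1.22 for KRT8. Without replicate 2 they ran from -0.76 for MUC1 to 0.70 for KRT8, with SOX9 at -0.59 and KRT18 at 0.41 instead of 1.17, and again were not called. In TalaR-DF, KRT7 and MUC1 were lower, at log2 fold changes of -1.23 (adjusted p = 0.0426) and -1.64 (adjusted p = 0.0180), and KRT19 differed from parental cells by 0.03. EPCAM was above parental cells in TalaR-DF by 0.57, under 2-fold (limma adjusted p = 0.0145). KRT8, KRT18 and SOX9 differed there by -0.01, -0.07 and -0.78 and were not called. The markers called higher in TalaR-M and those called lower in TalaR-DF were thus different genes. Between the TalaR groups, KRT19 and KRT7 were higher in TalaR-M, by 2.59 (limma adjusted p = 0.00505) and 1.75 (adjusted p = 0.0150). Without replicate 2 these differences were 2.04 and 1.28. MUC1, KRT18, KRT8 and EPCAM lay higher without a call, by 0.63 to 1.37 (0.47 to 0.89 without replicate 2). SOX9 differed by -0.15 (0.18). The tetraspanins called between these groups were also higher in TalaR-M, which was the direction of most calls over all genes (5.29% higher and 1.64% lower).

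Of 8 leukocyte markers 6 were at 0 (CD3E, CD3D, MS4A1, CD79A, ITGAM and LCP1). CD14, the most abundant per kilobase, was at 3.48 to 3.88 log2 CPM in parental libraries, 1.24, 2.83 and 1.23 in TalaR-M and 0.24 to 0.61 in TalaR-DF. PTPRC went the other way, from 0 in parental libraries to 1.79, 0 and 0.83 log2 CPM in TalaR-M and 0.05, 0 and 0 in TalaR-DF. It entered the tests only through TalaR libraries, so that the filter fixed its direction against parental cells. PTPRC was called higher in TalaR-M without replicate 2 (limma adjusted p = 3.33e-04) and not with it (adjusted p = 0.126). Summed, the markers made 11.1 to 14.7 CPM in parental libraries, 5.81, 7.11 and 4.14 in TalaR-M and 1.18 to 2.56 in TalaR-DF. The part of the marker lists in the tetraspanin differences was not tested.

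Among 4 endothelial markers VWF was at 0. Per kilobase KDR was the most abundant in parental libraries and PECAM1 in both TalaR groups. PECAM1 measured 3.76 to 3.84 log2 CPM in parental libraries, 2.01, 2.56 and 2.19 in TalaR-M and 1.54 to 1.69 in TalaR-DF. Their sum was 28.8 to 30.9 CPM in parental libraries, 9.06, 5.91 and 9.05 in TalaR-M and 2.92 to 3.24 in TalaR-DF, which, like the leukocyte sum, has the same order of groups as CD82, TSPAN18 and TSPAN13. Of 6 fibroblast genes THY1 was at 0, and per kilobase COL1A2 was the most abundant in parental libraries and PDGFRA in both TalaR groups. They summed to 408 to 417 CPM in parental libraries, 50.8, 23.8 and 47.9 in TalaR-M and 87.2 to 94.5 in TalaR-DF. That sum was lowest in TalaR-M, whereas CD82, TSPAN18 and TSPAN13 had their lowest means in TalaR-DF. No relation between these marker sums and the tetraspanins was tested. COL1A2, which encodes a collagen chain, measured 7.86, 7.86 and 7.88 log2 CPM in parental libraries, 0 in TalaR-M and 3.90, 3.67 and 3.74 in TalaR-DF. DCN, which encodes decorin, went the other way, at 0 in parental and TalaR-DF libraries and at 1.73, 1.45 and 1.47 in TalaR-M.

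The urothelial genes UPK2 and UPK3A and the pancreatic genes CELA3A, INS and GCG were at 0 in all libraries. UPK3B, the remaining urothelial gene, was at 1.06 to 1.94 CPM in parental libraries, 1.73, 2.73 and 1.43 in TalaR-M and 0 in TalaR-DF. The acinar and endocrine list summed to 3.62 to 4.39 CPM in parental libraries, 2.43, 5.32 and 2.28 in TalaR-M and 0 in TalaR-DF, with PRSS1 the most abundant per kilobase in parental cells and CPA1 in TalaR-M.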

How the data were processed

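Poly(A) RNA of PSN1 cells was made into stranded libraries and read in pairs of 150 bases, and the reads were handled by the authors with the genome build hg38. The aligner, counter and annotation are not given in the sources used here. The deposited values are log2 CPM of protein-coding genes, scaled to effective library sizes after a prior of about 1 read was added, and values under 0 were set to 0. The steps of the unlogged values gave whole reads for 100% of values under 50 CPM (tolerance 0.02 reads), 8387755 to 14973847 reads per library on genes above 1 CPM. A level of 1 CPM stood for 6.97 to 14.54 reads. The other 39 samples of the series were not analysed here.

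From these values, limma 3.58.1 (R 4.3.3) fitted 1 model of 3 groups with a mean-variance trend over 12471 genes that passed 1 CPM in 3 or more libraries. A gene was called at an adjusted p under 0.05 (Benjamini-Hochberg) and at least 2-fold. No further pseudocount was added. The fit was tested on simulated data drawn around the parental means, without a departure like that of TalaR-M replicate 2. The simulation therefore does not show how the fit behaves with that library. A further leukocyte marker is not reported here. The members and gene lists were chosen with earlier results of these data known. Tetraspanins called in at least 1 comparison were named with every library's value, the others by level, and the 12 called partner genes with the largest change were named. Positions and transcript lengths came from GENCODE 44 (88.3% of genes matched by symbol, all 31 members), and promoters from RefSeq (GRCh38.p14). Alternatives were the pseudocount, filter, scaling, variance model, library weights, replicate block, samples fitted, fold threshold and each library left out. Tables and figures were made with Python 3.11.15, pandas 2.3.3 and matplotlib 3.10.9.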

Additional observations from a re-analysis of the deposited data

How the results depend on the processing

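Adding 8 CPM to the unlogged values lowered the number of tetraspanins called from 6 to 3 in TalaR-M against parental cells and from 7 to 2 in TalaR-DF against parental cells (losing CD82, TSPAN13 and TSPAN33 in the former and TSPAN5, TSPAN8, TSPAN13, TSPAN15 and TSPAN33 in the latter), and the numbers over all genes from 1653, 1214 and 864 to 711, 426 and 272 for the 3 comparisons. Without a fold threshold the tetraspanins called in TalaR-M against TalaR-DF rose from 4 to 7 (TSPAN5, TSPAN15 and TSPAN2, the last of which entered the tests only through TalaR-M), and the numbers over all genes to 2938, 2315 and 1502. Fitting only the 2 groups compared gave 484 genes between TalaR-M and TalaR-DF. Leaving out each library in turn gave 5 to 6, 6 to 8 and 4 to 6 tetraspanins for the 3 comparisons, and 1298 to 2045, 983 to 1417 and 578 to 1043 genes over all. Scaling libraries by their median ratio shifted the median over all genes by 0.11 in TalaR-M against parental cells and by 0.15 against TalaR-DF, and the tetraspanins called stayed at 6 and 7 against parental cells and went from 4 to 5 between the TalaR groups, with TSPAN18 added. The cause of these changes was not tested, beyond the smaller folds that a larger pseudocount gives.

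Of the results for single genes under these alternatives, 1064 kept their direction and side of the threshold, 47 lost the call, 19 gained one and 4 changed sign. The 4 were small differences that were not called. TSPAN33 in TalaR-M against TalaR-DF was -0.20, and it ran from -0.57 to 0.13 as each library was left out, with 0.13 without TalaR-M replicate 3. ALCAM in the same comparison was 0.01 and ran from -0.15 to 0.20, with -0.15, -0.02 and -0.06 without TalaR-M replicate 1, TalaR-M replicate 3 and TalaR-DF replicate 1. With the replicate number as a block, 5, 6 and 4 tetraspanins were called, and TSPAN33 was the one that lost its call. Same-numbered libraries did not deviate together in every pair (correlations from -0.31 to 0.16), and not every library correlated best with its own number, so that the block is no pairing by design. Between 6.97 and 14.54 reads at 1 CPM limit what can be said of TSPAN2, CD37 and the genes at 0.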

Other observations

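The L6 family, whose members resemble tetraspanins in topology but not in sequence, was singled out after its values were seen. Of 6 genes listed, 2 were tested. TM4SF18 measured 4.29 to 4.39 log2 CPM in parental libraries, 5.84, 5.35 and 5.61 in TalaR-M and 5.52 to 5.67 in TalaR-DF. It was higher than in parental cells by 1.27 ± 0.15 in TalaR-M (SE, limma adjusted p = 5.67e-04), 1.39 without replicate 2, and by 1.24 ± 0.15 in TalaR-DF (adjusted p = 7.80e-04). TM4SF1, an antigen of several carcinomas, measured 7.04 to 7.10 in parental libraries, 7.79, 8.53 and 7.57 in TalaR-M and 6.58 to 6.70 in TalaR-DF. It was higher in TalaR-M than in TalaR-DF by 1.31 ± 0.23 (adjusted p = 0.00843). Leaving out TalaR-M replicate 2, this difference was 1.03. These values were not compared with those of the tetraspanins by a test.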
